A study of Caenorhabditis elegans with 36 samples.

Results

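The *C. elegans* genes *gsp-1*, *gsp-2*, *gsp-3* and *gsp-4* encode catalytic subunits of protein phosphatase 1 (PP1), and small RNAs mapping to these 4 genes were followed in input and HRDE-1 IP libraries. The members were taken by their WormBase gene identifiers, which the WBcel235 annotation of Ensembl pairs with the symbols, and they are 4 of the 31106 features in each table. *gsp-1* (WBGene00001747) is on chromosome V at 10682422 to 10686537 on the plus strand, with 1790 nt of exons. *gsp-2* (WBGene00001748) is on chromosome III at 7336587 to 7338765 on the plus strand, with 1614 nt of exons. The sperm pair lies on the minus strand of chromosome I, with *gsp-3* (WBGene00021113) at 4709262 to 4710712 and 1108 nt of exons, and *gsp-4* (WBGene00020187) at 3838237 to 3839899 and 1379 nt of exons. All 4 are protein-coding and reads were counted over their exons, without regard to strand.

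PP1 removes phosphates from serine and threonine, and its catalytic subunit is directed to its substrates by partner proteins. GSP-1 and GSP-2 are present in many tissues and act in mitosis and meiosis, where they oppose the Aurora B kinase AIR-2 on chromosomes. GSP-3 and GSP-4 are made in the germline during sperm formation and act in sperm chromosome segregation and in the motility of the crawling sperm. In the germline, RNA-dependent RNA polymerases copy mRNAs into 22G-RNAs, which are bound by Argonaute proteins of the silencing WAGO class, including the nuclear Argonaute HRDE-1, or by CSR-1, which is known for genes that are expressed in the germline. HRDE-2 and SIMR-1 are germ granule proteins of these pathways, and MUT-2 is a nucleotidyltransferase needed for most WAGO-class 22G-RNAs.

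All animals carried *hrde-1(tor125[GFP::3xFLAG::hrde-1])*, so that HRDE-1 could be immunoprecipitated with anti-FLAG from about 100000 whole 1-day-old adults grown at 20°C for about 68 hours from the arrested first larval stage. The genotypes, 6 in all, were *mut-2(ne298)* with *hrde-2(qe20)* (*mut-2; hrde-2*), *simr-1(cmp36)* with *mut-2(cmp306)* (*simr-1 mut-2*), *mut-2(ne298)*, *simr-1(cmp36)*, *hrde-2(qe20)*, and the tagged strain with no further mutation (wild-type). Each had 3 replicates of IP and of input taken from the same lysate, 36 libraries of size-selected 18 to 30 nt RNA in 12 conditions. *simr-1 mut-2* and *mut-2* carry different *mut-2* alleles, so a comparison between them is also one between alleles. The animals were hermaphrodites, which at this stage form oocytes and also hold sperm. Because whole animals were used, fewer cells making a small RNA and less of it per cell cannot be told apart.

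Counts on genes per library were between 8206593 and 17448124 in the IPs and between 4275760 and 10306745 in the inputs, so that 1 count stood for 0.0573 RPM in the deepest library and 0.234 RPM in the shallowest. RPM is a gene's count per 1000000 counts on genes. The *simr-1* gene itself had 25.02 to 32.98 RPM in *simr-1 mut-2* inputs and 29.8 to 35.8 RPM in *simr-1* inputs, against 132 to 179 RPM in wild-type inputs. Small RNAs to *hrde-2* (30.99 to 36.1 RPM in *hrde-2* inputs, 39.2 to 54.6 RPM in wild-type inputs) and to *mut-2* (43.3 to 45.4 RPM in *mut-2* inputs, 27.9 to 37.7 RPM in wild-type inputs) do not identify those mutants. Samples are given as replicate 1, 2 and 3. Worms were grown and collected separately for each replicate, so the p-values cover the spread between biological replicates.

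The ubiquitous pair lay on opposite sides in the mutants and in wild-type. In each of the 5 mutants, small RNAs to *gsp-1* and *gsp-2* were more abundant in the HRDE-1 IP than in input, and in wild-type they were less abundant in the IP. This held in all 3 lysates of every genotype, and the RPM of IP and input libraries did not overlap in any of them.

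In the *hrde-2* mutant *gsp-1* had 211, 209 and 215 RPM in the IPs, against 51.2, 50.1 and 62.5 RPM in the inputs. In wild-type it had 21.3, 25.97 and 24.2 RPM in the IPs, against 53.2, 62.4 and 53.2 RPM in the inputs. The inputs of both genotypes covered the same range, and the IPs were 3 or more times above it in *hrde-2* animals and below it in wild-type. In the *simr-1* mutant *gsp-1* had 103, 103 and 96.9 RPM in the IPs, against 66.1, 64.5 and 54.7 RPM in the inputs. In *mut-2* animals it had 189, 189 and 165 RPM in the IPs, against 116, 126 and 109 RPM in the inputs. Both IP and input were thus higher in *mut-2* than in *simr-1* animals. In *mut-2; hrde-2* it had 234.5, 187 and 226 RPM in the IPs, against 143, 144 and 138 RPM in the inputs. In *simr-1 mut-2* it had 216, 279 and 287 RPM in the IPs, against 127, 166 and 189.9 RPM in the inputs. The 3 genotypes with a *mut-2* mutation had the 3 highest *gsp-1* inputs.

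*gsp-2* followed the same order of sides at higher levels. In *hrde-2* animals it had 409, 420.2 and 389 RPM in the IPs, against 97.4, 87.3 and 96.5 RPM in the inputs. In wild-type it had 52.9, 66.4 and 54.6 RPM in the IPs, against 95.0, 128 and 97.1 RPM in the inputs. As for *gsp-1*, the *hrde-2* and wild-type inputs overlapped while the IPs lay far apart. In *simr-1* animals it had 236, 253 and 217 RPM in the IPs, against 117, 117 and 104 RPM in the inputs. In *mut-2* animals it had 293, 298 and 319 RPM in the IPs, against 190.4, 198 and 254 RPM in the inputs. *gsp-2* in *mut-2* inputs reached the level that it had in *simr-1* IPs. In *mut-2; hrde-2* it had 446, 415 and 419 RPM in the IPs, against 303, 314 and 256 RPM in the inputs. In *simr-1 mut-2* it had 424, 394 and 393 RPM in the IPs, against 292, 316 and 329 RPM in the inputs. Both double mutants were above *mut-2* in IP and in input.

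**Figure D1:**
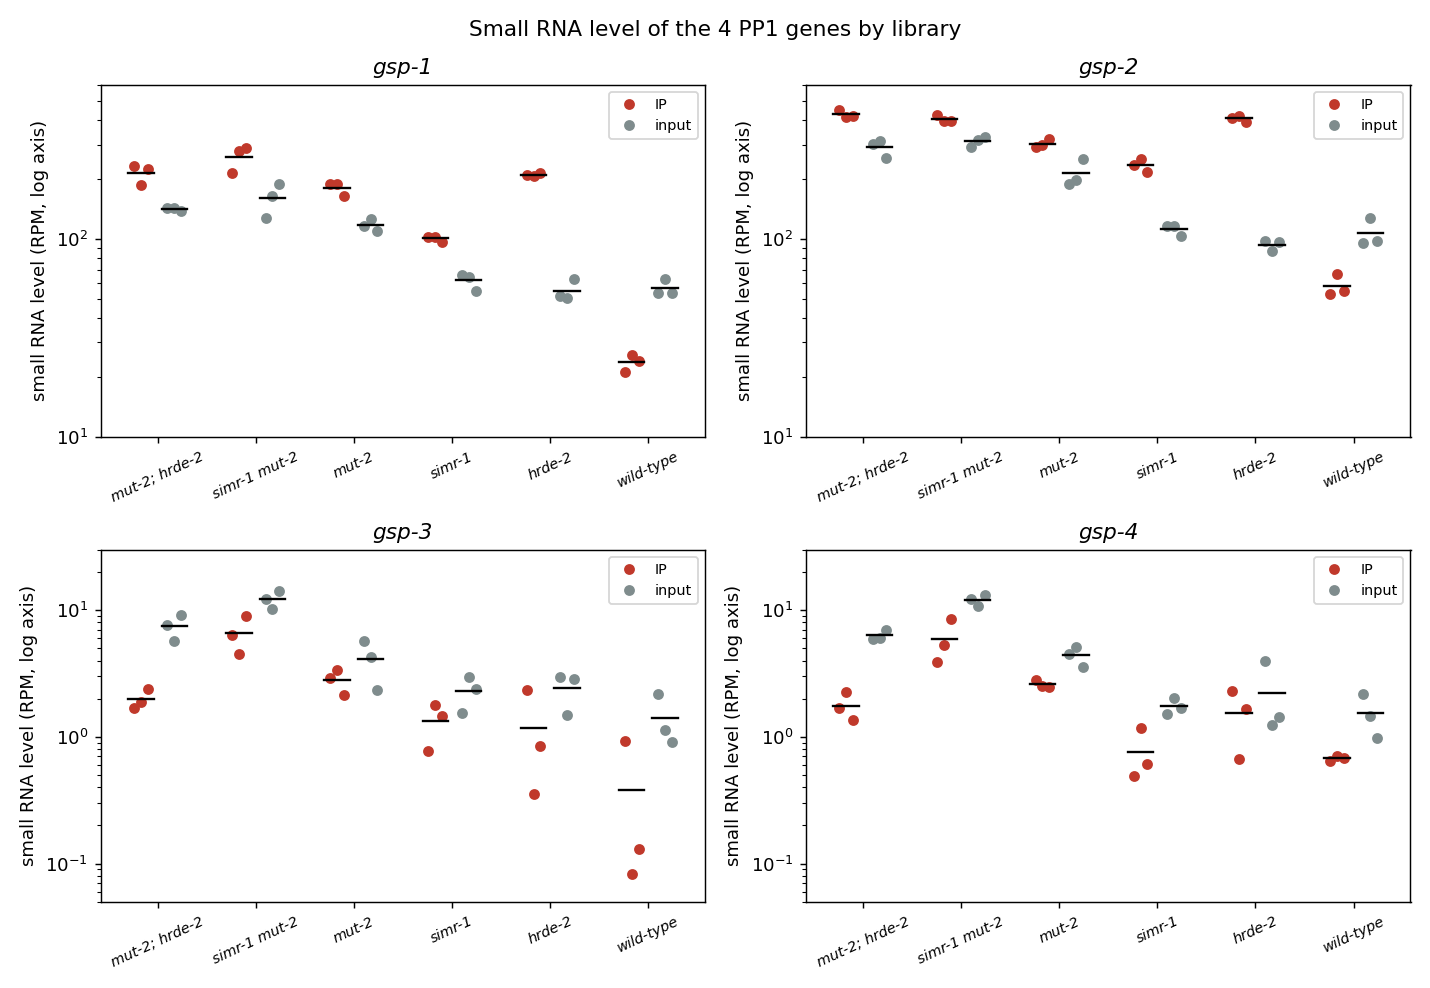
Small RNA level of each gene in RPM on a log axis, by genotype, with IP in red and input in grey. Points are the 3 replicates and bars their means. The IP points of *gsp-1* and *gsp-2* lie above the input points in the 5 mutants and below them in wild-type. The sperm genes lie far lower, at up to 14.03 RPM.

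Ordered by mean, *gsp-1* ran between 260.5 ± 38.9 RPM in *simr-1 mut-2* IPs and 23.9 ± 2.33 RPM in wild-type IPs, a 10.9-fold span over the 12 conditions (SD, n = 3 each). *gsp-2* ran between 427 ± 16.9 RPM in *mut-2; hrde-2* IPs and 58.0 ± 7.33 RPM in wild-type IPs, a 7.36-fold span. For both genes, wild-type IP was the lowest condition and did not overlap the next, *hrde-2* input. The *hrde-2*, wild-type and *simr-1* inputs came next and each overlapped its neighbour in that order. At the top, the IPs of both double mutants and of the *hrde-2* mutant each overlapped the next in order of mean. For *gsp-1* the first and last of these, *simr-1 mut-2* and *hrde-2*, did not overlap each other. Within a library, *gsp-2* had 1.37 to 2.56 times the counts of *gsp-1*.

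IP was compared with input in 1 fit per genotype (edgeR quasi-likelihood with TMM scaling, Benjamini-Hochberg adjustment over all genes tested), and genes with at least a 2-fold difference and an adjusted p no higher than 0.05 were called. In *hrde-2* animals both ubiquitous genes were called higher in the IP, with means above 10 RPM there. These are the thresholds that the study set for HRDE-1 target genes, but the study took its adjusted p from DESeq2 and not from edgeR. The log2 difference was 1.72 ± 0.12 for *gsp-1* (SE, edgeR adjusted p = 3.1e-06) and 1.89 ± 0.11 for *gsp-2* (edgeR adjusted p = 1.7e-06). In that fit 28.5% of 12841 tested genes were called higher, so that 2 of 4 members stand beside a large background. In wild-type the log2 differences were -0.90 ± 0.15 for *gsp-1* and -0.53 ± 0.17 for *gsp-2*, with edgeR adjusted p of 0.0011 and 0.023, and neither reached 2-fold. There 28.9% of genes were called higher and 25.3% lower.

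In the other 4 mutants the IP of the ubiquitous genes was higher by less than 2-fold and was not called. For *gsp-1* the log2 difference was 0.55 ± 0.09 in *mut-2; hrde-2*, 0.58 ± 0.11 in *simr-1 mut-2*, 0.47 ± 0.07 in *mut-2* and 0.36 ± 0.08 in *simr-1* animals, with edgeR adjusted p between 4.2e-05 and 0.0046. For *gsp-2* it was 0.49 ± 0.09, 0.26 ± 0.11, 0.34 ± 0.12 and 0.72 ± 0.09 in the same genotypes, with edgeR adjusted p between 8.2e-05 and 0.08. These values depend on how libraries were scaled. With the mapped reads of each library in place of TMM, all 8 exceeded 1.4 and were called, and the median over all tested genes moved to between 1.05 and 1.36 in these fits, against -0.06 to 0.02 with TMM. With library size alone, *gsp-1* in wild-type (-1.24) and *gsp-2* in *simr-1* animals (1.07) were called.

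**Figure D2:**
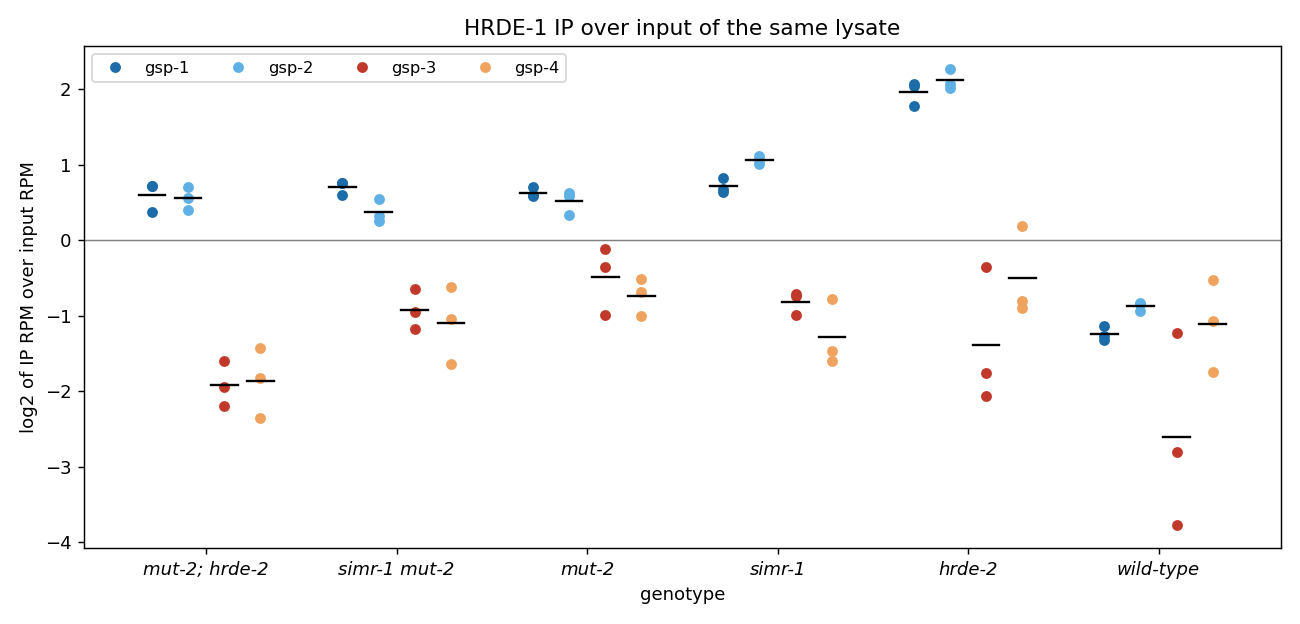
The log2 of IP RPM over input RPM in each lysate, by genotype, with 1 colour per gene. Points are the 3 lysates and bars their means. The ubiquitous genes are above 0 in every mutant lysate and below 0 in the wild-type lysates, and the sperm genes are below 0 in all lysates but 1, *gsp-4* in *hrde-2* replicate 3 (0.19).

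The sperm genes had few small RNAs in any condition and were mostly lower in the HRDE-1 IP than in input. Over the 36 libraries *gsp-3* had 1 to 150 counts and *gsp-4* 6.5 to 143 counts, and only in *simr-1 mut-2* inputs did their means reach 10 RPM. The precision is set by these counts. The pair are close paralogs and the handling of reads that match both was not given in the sources used here, so the split of counts between them is uncertain. *gsp-4* also shares exon sequence with T03F1.6 (WBGene00020188, chromosome I, 3839809 to 3841558, minus strand), and 17 libraries hold a fractional count of *gsp-4*. A summed count of both genes is given beside them because of the uncertain split. It does not restore *gsp-4* reads shared with T03F1.6, or reads matching both paralogs if these were not counted.

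*gsp-3* had 1.68, 1.87 and 2.37 RPM in *mut-2; hrde-2* IPs, against 7.67, 5.67 and 9.16 RPM in the inputs. In *simr-1 mut-2* it had 6.34, 4.54 and 8.97 RPM in the IPs, against 12.3, 10.3 and 14.03 RPM in the inputs. IP and input did not overlap in either double mutant. In *mut-2* animals it had 2.90, 3.34 and 2.15 RPM in the IPs, against 5.74, 4.27 and 2.33 RPM in the inputs. In *simr-1* animals it had 0.777, 1.78 and 1.45 RPM in the IPs, against 1.55, 2.97 and 2.38 RPM in the inputs. IP and input overlapped in both single mutants. In *hrde-2* animals it had 2.32, 0.353 and 0.853 RPM in the IPs, against 2.96, 1.48 and 2.89 RPM in the inputs. In wild-type it had 0.923, 0.0824 and 0.1297 RPM in the IPs, against 2.16, 1.13 and 0.902 RPM in the inputs, and the lower 2 IPs hold 1 and 2 counts. Replicate 1 was the highest IP in both of these genotypes, and IP and input overlapped. The order by mean had *simr-1 mut-2* inputs at the top, apart from the next condition, and wild-type IPs at the bottom, with neighbours that overlapped in between.

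*gsp-4* had 1.68, 2.25 and 1.35 RPM in *mut-2; hrde-2* IPs, against 5.93, 6.07 and 6.96 RPM in the inputs. In *simr-1 mut-2* it had 3.90, 5.27 and 8.55 RPM in the IPs, against 12.2, 10.9 and 13.1 RPM in the inputs. Here too the groups did not overlap in the double mutants. In *mut-2* animals it had 2.79, 2.53 and 2.49 RPM in the IPs, against 4.51, 5.09 and 3.56 RPM in the inputs. In *simr-1* animals it had 0.495, 1.17 and 0.611 RPM in the IPs, against 1.504, 2.01 and 1.69 RPM in the inputs. Both single mutants had IPs below their inputs. In *hrde-2* animals it had 2.28, 0.670 and 1.65 RPM in the IPs, against 4.00, 1.25 and 1.44 RPM in the inputs, which overlap. In wild-type it had 0.646, 0.701 and 0.681 RPM in the IPs, against 2.16, 1.47 and 0.977 RPM in the inputs, which do not overlap. *gsp-4* too had its highest mean in *simr-1 mut-2* inputs, apart from the next condition, and its lowest in wild-type IPs.

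Both sperm genes were called lower in the IP in the double mutants and in *simr-1* animals. In *mut-2; hrde-2* the log2 difference was -1.97 ± 0.25 for *gsp-3* and -1.88 ± 0.24 for *gsp-4* (edgeR adjusted p = 3.5e-06 and 5.6e-06), where 2.96% of tested genes were called higher and 28.9% lower. In *simr-1 mut-2* it was -1.02 ± 0.30 and -1.18 ± 0.30 (edgeR adjusted p = 0.022 and 0.011), where 3.75% of genes were called higher and 22.5% lower. In *simr-1* animals it was -1.10 ± 0.37 and -1.53 ± 0.36 (edgeR adjusted p = 0.027 and 0.0047), where 8.42% were called higher and 21.6% lower. In *mut-2* animals neither was called, with -0.69 ± 0.31 and -0.90 ± 0.22 (edgeR adjusted p = 0.074 and 0.0037), where 13.4% of genes were called higher and 22.3% lower. Without replicate 3 *gsp-4* was called there (-1.02).

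In *hrde-2* animals the log2 difference was -1.32 ± 0.57 for *gsp-3* and -0.78 ± 0.54 for *gsp-4* (edgeR adjusted p = 0.056 and 0.20), where 41.9% of genes were called lower. In wild-type it was -1.48 ± 0.74 and -0.91 ± 0.39 (edgeR adjusted p = 0.099 and 0.062). With the lysate as a replicate block, *gsp-3* was called lower in both of these, at -1.39 in *hrde-2* and -1.54 in wild-type animals. Counted as 1 feature, the sperm pair was lower by the call in 4 of 6 genotypes. It was at -1.93 ± 0.19 in *mut-2; hrde-2*, -1.09 ± 0.25 in *simr-1 mut-2*, -1.29 ± 0.32 in *simr-1* and -1.16 ± 0.43 in wild-type animals, with edgeR adjusted p between 2.4e-07 and 0.037. It was not called in *mut-2* (-0.80 ± 0.22) or *hrde-2* animals (-1.04 ± 0.50).

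The direction of the sperm genes was not independent of scaling. With mapped reads as the library size no sperm gene was called lower in any of the 3 mutants above. The sign turned for *gsp-3* in *simr-1 mut-2* (0.33) and *mut-2* animals (0.41), and for *gsp-4* in *simr-1 mut-2* (0.18), *mut-2* (0.19) and *hrde-2* animals (0.29). Single lysates also decided calls. *gsp-3* in *simr-1 mut-2* was not called without replicate 1 (edgeR adjusted p = 0.079) or without replicate 2 (edgeR adjusted p = 0.12), and in *simr-1* animals without replicate 2 (edgeR adjusted p = 0.071) or replicate 3 (edgeR adjusted p = 0.14). *gsp-4* in *simr-1 mut-2* was not called without replicate 1 (log2 -0.90) or without replicate 2 (edgeR adjusted p = 0.11). In *simr-1* animals *gsp-4* was not called without replicate 3 (edgeR adjusted p = 0.066) and had too few counts for a test without replicate 2.

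A ratio taken within a library needs no scaling between libraries. The log2 of the summed counts of the sperm pair over those of the ubiquitous pair was lower in the IP than in the input of the same lysate in 18 of 18 lysates. The mean difference was -2.45 ± 0.48 in *mut-2; hrde-2*, -1.49 ± 0.43 in *simr-1 mut-2*, -1.18 ± 0.38 in *mut-2*, -1.95 ± 0.21 in *simr-1*, -2.99 ± 0.53 in *hrde-2* and -0.48 ± 0.20 in wild-type animals (SD, n = 3 lysates each). The 15 mutant lysates ran between -3.61 and -0.76 and all lay below the wild-type lysates, at -0.47, -0.69 and -0.28. Taken as the mean of the log2 values of the single genes, the wild-type difference between IP and input was -0.80 in place of -0.48. By that measure wild-type replicate 2, whose IP holds 1 count of *gsp-3*, lay below *mut-2* replicate 3. The separation of mutant and wild-type lysates thus held for summed counts only. In counts, the ubiquitous pair had 135 to 615 times the counts of the sperm pair in *hrde-2* IPs, against 21.4 to 50.4 times in *hrde-2* inputs. In wild-type it had 47.3 to 118 times the sperm counts in IPs, against 34.3 to 80 times in inputs.

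**Figure D3:**
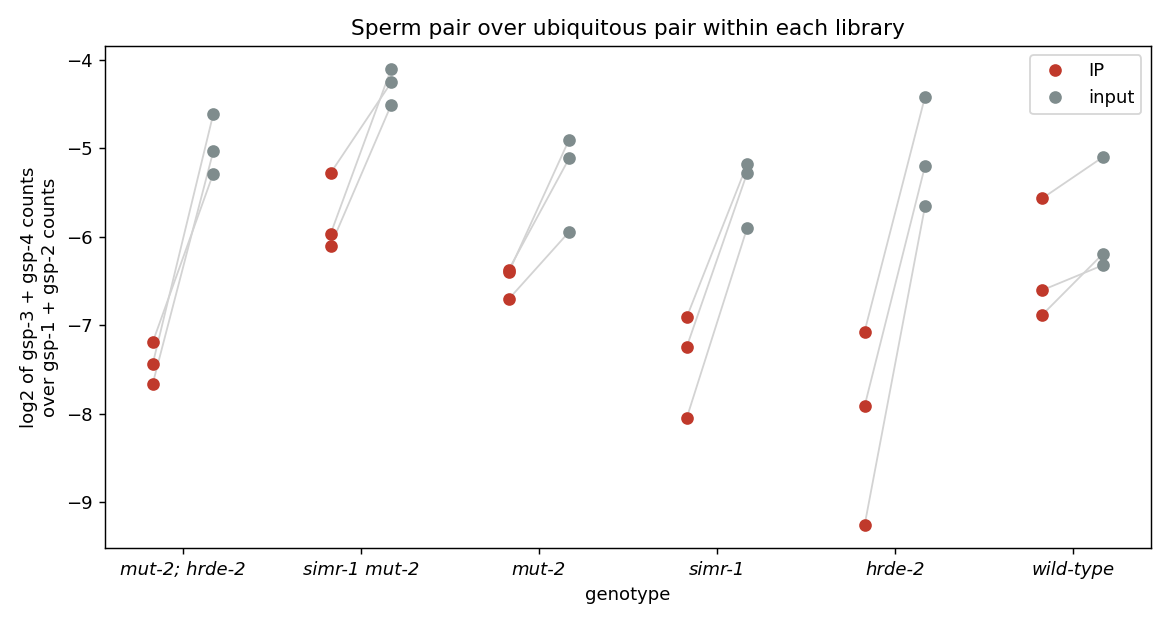
The log2 of *gsp-3* plus *gsp-4* counts over *gsp-1* plus *gsp-2* counts within each library, by genotype, with IP in red and input in grey. Lines join the IP and input of 1 lysate. Every line rises towards its input, most in the *hrde-2* mutant (differences of -2.66 to -3.61) and least in wild-type (-0.28 to -0.69).

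The balance within the ubiquitous pair was also compared between IP and input. *gsp-2* over *gsp-1* in counts was 2.43 ± 0.16 in wild-type IPs against 1.88 ± 0.14 in wild-type inputs, and 2.33 ± 0.12 in *simr-1* IPs against 1.82 ± 0.07 in *simr-1* inputs (SD, n = 3). In both genotypes the IP and input values did not overlap. In *hrde-2* it was 1.92 ± 0.10 in IPs against 1.73 ± 0.18 in inputs, and the ranges overlapped. They also overlapped in *mut-2; hrde-2* (1.99 ± 0.20 in IPs, 2.05 ± 0.18 in inputs), *simr-1 mut-2* (1.58 ± 0.33 in IPs, 1.98 ± 0.29 in inputs) and *mut-2* animals (1.68 ± 0.21 in IPs, 1.85 ± 0.41 in inputs). These ratios were not tested. Per length of exon, *gsp-2* had 252 ± 9.67 RPM per kb and *gsp-1* 118 ± 1.55 RPM per kb in *hrde-2* IPs, while *gsp-3* had 1.06 ± 0.92 and *gsp-4* 1.11 ± 0.59 RPM per kb there.

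Whether a mutation changed the enrichment of a gene was tested as the difference of the IP-over-input differences, over 12 libraries. Both ubiquitous genes were more enriched in *hrde-2*, *mut-2* and *simr-1* animals than in wild-type. In the *hrde-2* mutant the log2 difference was 2.96 ± 0.21 for *gsp-1* and 2.76 ± 0.22 for *gsp-2* (SE, edgeR adjusted p = 2.0e-08 and 6.0e-08), where 33.7% of 15444 genes were called higher. In *mut-2* animals it was 1.81 ± 0.17 and 1.31 ± 0.24 (edgeR adjusted p = 3.7e-06 and 0.00047), where 28.4% of genes were called higher and 9.64% lower. In *simr-1* animals it was 1.07 ± 0.15 and 1.07 ± 0.17 (edgeR adjusted p = 0.00021 and 0.00044), where 9.37% of genes were called higher and the median over all tested genes was -0.63.

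These 3 comparisons share the wild-type libraries. All 6 differences stayed positive under each alternative tried. The call of *gsp-2* in *mut-2* animals was lost with DESeq2 (0.93) and when all 36 libraries were fitted together (0.90). With library size alone the median over all genes in the *simr-1* comparison was 0.23, against -0.63 with TMM. All *mut-2* libraries, but only some wild-type libraries, carry the suffix -2 in their library names, and with a term for that suffix the *gsp-2* difference was 0.89.

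The sperm genes had no called difference in enrichment between these mutants and wild-type. *gsp-3* was at 0.50 ± 0.98 in *hrde-2*, 1.22 ± 0.81 in *mut-2* and 0.19 ± 0.85 in *simr-1* animals, and *gsp-4* at 0.45 ± 0.72, 0.45 ± 0.43 and -0.81 ± 0.54 in the same order. With 1 to 41 counts of *gsp-3* and 6.5 to 40.5 counts of *gsp-4* in the libraries of these fits, the errors leave room for a change of 2-fold in *gsp-3* and in *gsp-4*. The sign of *gsp-4* in *simr-1* animals turned with library size alone (0.06) and with mapped reads (0.22), and *gsp-3* in *mut-2* animals was called when replicate 1 was left out (2.73).

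These comparisons share the *mut-2* libraries. Against *mut-2*, neither double mutant moved the enrichment of the ubiquitous genes past the call. Of 13174 genes tested for the double mutant with *simr-1*, 0.114% were called higher and 10.7% lower, so most genes were not called there. In *mut-2; hrde-2* the log2 difference was 0.09 ± 0.11 for *gsp-1* and 0.17 ± 0.16 for *gsp-2*, and in *simr-1 mut-2* -0.04 ± 0.14 and -0.24 ± 0.18 (edgeR adjusted p between 0.41 and 0.90). The enrichment of *gsp-3* was called lower in *mut-2; hrde-2* animals, at -1.27 ± 0.41 (edgeR adjusted p = 0.020), where 1.74% of genes were called higher and 21.4% lower. *gsp-4* was at -0.96 ± 0.32 (edgeR adjusted p = 0.023) and the summed pair at -1.12 ± 0.29 (edgeR adjusted p = 0.0054), which was called. *gsp-4* was called without replicate 2 (-1.37). The call of *gsp-3* was lost without replicate 1 (edgeR adjusted p = 0.057), without replicate 2 (edgeR adjusted p = 0.080) and with all 36 libraries in 1 fit (edgeR adjusted p = 0.14). In *simr-1 mut-2* the sperm genes were at -0.48 ± 0.45 and -0.42 ± 0.38 against *mut-2*.

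**Figure D4:**
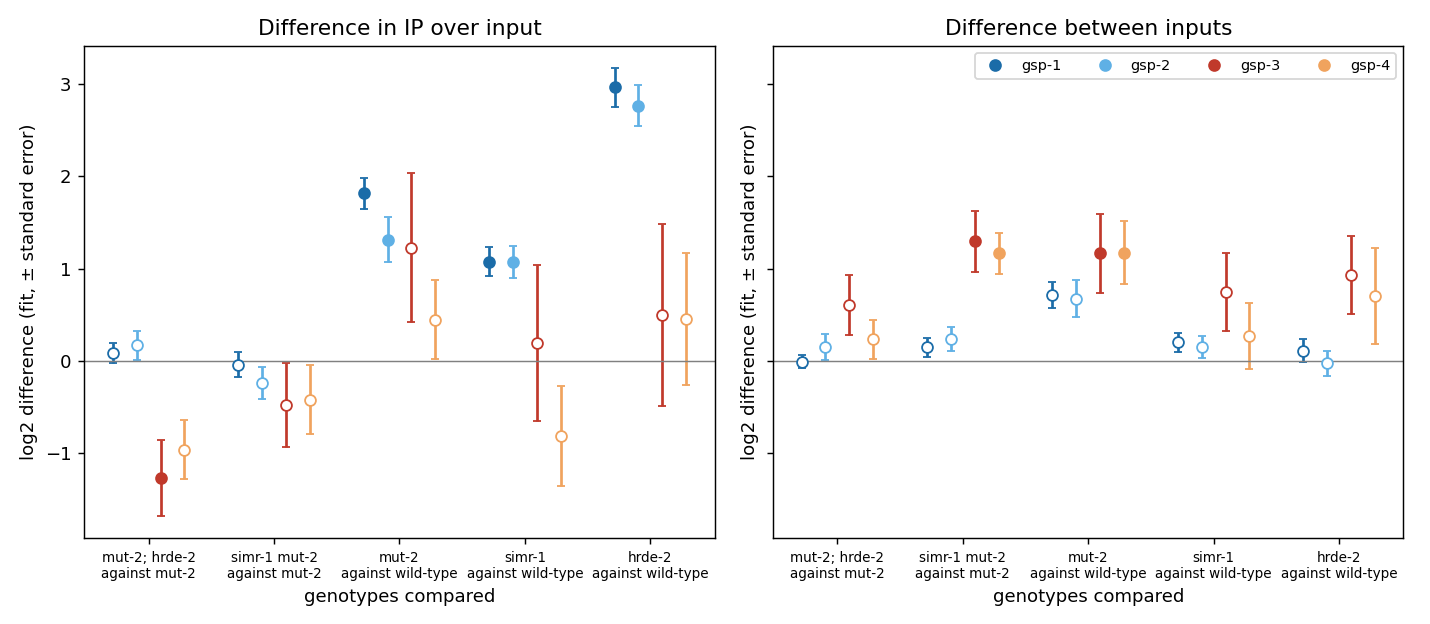
Log2 difference of each gene between genotypes from the fits, with IP over input on the left and inputs on the right. Points are the fitted values, bars are ± 1 SE, and filled points were called by the rule above. On the left, *gsp-1* and *gsp-2* are filled in the 3 comparisons with wild-type and *gsp-3* in that of *mut-2; hrde-2* with *mut-2*. On the right, *gsp-3* and *gsp-4* are filled in 2 comparisons, namely *mut-2* against wild-type and its double mutant with *simr-1* against *mut-2*.

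In the inputs, the total small RNAs to the ubiquitous genes did not pass the call in any of 5 comparisons. In *mut-2* animals *gsp-1* was at 0.72 ± 0.14 and *gsp-2* at 0.67 ± 0.20 against wild-type (edgeR adjusted p = 0.0015 and 0.014), where 11.1% of 13558 genes were called higher and 33.1% lower. With library size alone these were 1.06 and 1.01 and were called, and with all 36 libraries in 1 fit 1.344 and 1.304. In *hrde-2* animals they were at 0.11 ± 0.12 and -0.03 ± 0.13, and in *simr-1* animals at 0.20 ± 0.10 and 0.15 ± 0.12 against wild-type. Of all genes, 4.06% were called higher and 10% lower in *hrde-2* inputs, and 1.19% and 13.2% in *simr-1* inputs. Against *mut-2*, *gsp-1* was at -0.01 ± 0.07 in *mut-2; hrde-2* and 0.15 ± 0.10 in *simr-1 mut-2*, and *gsp-2* at 0.15 ± 0.14 and 0.24 ± 0.13. The sign was not fixed for *gsp-1* in *mut-2; hrde-2*, which was 0.28 with library size alone.

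The sperm genes rose in the inputs of *mut-2* animals and again in those of *simr-1 mut-2* animals. Against wild-type, *gsp-3* was at 1.17 ± 0.43 and *gsp-4* at 1.17 ± 0.34 in *mut-2* animals (edgeR adjusted p = 0.035 and 0.013). Against *mut-2*, they were at 1.29 ± 0.33 and 1.16 ± 0.22 in *simr-1 mut-2* animals (edgeR adjusted p = 0.036 and 0.013), where 3.57% of 11441 genes were called higher and 6.98% lower. As 1 feature the pair was at 1.19 ± 0.35 in the first of these and 1.22 ± 0.24 in the second (edgeR adjusted p = 0.013 in both). In *mut-2* animals both calls were lost without any 1 of the 3 replicates, with log2 between 0.74 and 1.05 for *gsp-3* and between 0.78 and 1.22 for *gsp-4*. In *simr-1 mut-2* animals both were lost without replicate 2 (edgeR adjusted p = 0.18 and 0.11) and without replicate 3 (edgeR adjusted p = 0.19 and 0.12).

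In the other 3 input comparisons no sperm gene was called. In *mut-2; hrde-2* against *mut-2*, *gsp-3* was at 0.61 ± 0.32 and *gsp-4* at 0.23 ± 0.21, where 0.343% of genes were called higher and 6.21% lower. In *hrde-2* animals they were at 0.93 ± 0.42 and 0.70 ± 0.52, and in *simr-1* animals at 0.75 ± 0.42 and 0.27 ± 0.36 against wild-type, where 4.06% and 1.19% of genes were called higher.

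Other sperm genes were measured beside the pair, by a list of 21 genes that act in sperm formation or function, among them the Argonautes *alg-3* and *alg-4*. Their summed level was 105 to 133 RPM in *mut-2; hrde-2* inputs, 139.8 to 203 RPM in *simr-1 mut-2* inputs, 59.5 to 85.6 RPM in *mut-2* inputs, 218 to 272 RPM in *simr-1* inputs, 111 to 116 RPM in *hrde-2* inputs and 159 to 195 RPM in wild-type inputs. The sum was highest in *simr-1* inputs, whereas *gsp-3* and *gsp-4* were highest in *simr-1 mut-2* inputs. In each input 20 or 21 of the 21 genes were above 0 counts. The median gene of the list had 5.93 to 8.42 RPM in *simr-1 mut-2* inputs, 2.33 to 3.61 RPM in *mut-2* inputs and 0.790 to 1.54 RPM in wild-type inputs, so the sum and the median of the list differ in order. Of 17 tested list genes, 6 were called higher and 0 lower in *simr-1 mut-2* inputs against *mut-2* (median log2 1.07, against 0.00 over all genes), where 3.57% of all genes were called higher. Scaled by library size alone, 13 were higher, beside 9.003% of all genes. Of 15 tested, 5 were higher and 4 lower in *mut-2* inputs against wild-type (median 0.73, against -0.01), beside 11.1% and 33.1% of all genes. The part of sperm content in the rise of *gsp-3* and *gsp-4* was not tested.

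A list of 8 genes for muscle, gut, neuron and cuticle had 65.8 to 259 RPM in sum in the inputs, all 8 above 0. In the IP, 3 of 4 tested were called lower in *mut-2; hrde-2* and in *simr-1 mut-2*, beside 28.9% and 22.5% of all genes. In *mut-2* and in *simr-1* animals 4 of 6 were lower, beside 22.3% and 21.6%. In *hrde-2* animals 2 of 6 were lower, beside 41.9%, and in wild-type 3 of 6, beside 25.3%. In *mut-2* IPs 1 gene and in wild-type IPs 2 genes were called higher, beside 13.4% and 28.9% of all genes.

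In the IPs, 7 of 18 tested sperm genes were called lower and 1 higher than input in *mut-2; hrde-2* (median -0.40, against -0.06 over all genes), beside 28.9% and 2.96% of all genes. In *simr-1 mut-2* 2 of 21 were lower and 2 higher, beside 22.5% and 3.75%, and in *mut-2* 3 of 18 were lower and 1 higher, beside 22.3% and 13.4%. In *simr-1* 1 of 12 was lower and 0 higher, beside 21.6% and 8.42%, and in *hrde-2* 2 of 16 were lower and 2 higher, beside 41.9% and 28.5%. In wild-type 0 of 10 were lower and 1 higher, beside 25.3% and 28.9%. The share of list genes called lower was thus above that of all genes in *mut-2; hrde-2* and below it in the other genotypes. In enrichment, 6 of 20 fell and 0 rose in *mut-2; hrde-2* against *mut-2* (median -0.67, against -0.05), beside 21.4% and 1.74% of all genes. The enrichment count in *simr-1* animals against wild-type was 2 lower and 0 higher of 18 with TMM, beside 21.9% and 9.37% of all genes, and 0 lower and 2 higher with library size alone, beside 2.85% and 26.6%. The list holds genes with high and low small RNA levels, and *gsp-3* and *gsp-4* are not in it.

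Other phosphatases and PP1 partners were measured beside the ubiquitous pair. Of 7 other phosphatases of the PPP family, 6 were tested in *hrde-2* animals, and 5 were called higher and 1 lower in the IP (median log2 1.76, against -0.34 over all genes), beside 28.5% and 41.9% of all genes. The largest changes were *tax-6* (-2.36 ± 0.12), the calcineurin catalytic subunit, *pph-5* (2.27 ± 0.13), the PP5 phosphatase, and *pph-6* (2.07 ± 0.18), the PP6 catalytic subunit. In wild-type *tax-6* was called higher in the IP (2.14 ± 0.16) and *pph-4.1*, a PP4 catalytic subunit, lower (-1.38 ± 0.15). *tax-6* was also called higher in the IP in *simr-1 mut-2* (1.05 ± 0.25), *mut-2* (2.52 ± 0.11) and *simr-1* animals (1.34 ± 0.10). In these fits 3.75%, 13.4% and 8.42% of all genes were called higher.

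Between genotypes, 5 of 7 PPP genes were more enriched and 2 less in *hrde-2* than in wild-type animals, led by *tax-6* (-4.15 ± 0.21), *pph-4.1* (3.36 ± 0.22) and *let-92*, the PP2A catalytic subunit (3.13 ± 0.22). The other gene less enriched was *pef-1* (-2.37 ± 0.98), named here after its value was seen. Of all genes, 36.1% were less enriched in this comparison. In *mut-2* animals 5 of 7 were more enriched, and in *simr-1* animals 3 of 7. Of all genes, 33.7%, 28.4% and 9.37% were more enriched in *hrde-2*, in *mut-2* and in *simr-1* animals. With library size alone 5 of 7 were more enriched in *simr-1* animals, beside 26.6% of all genes. Against *mut-2*, *tax-6* was less enriched in *mut-2; hrde-2* (-2.50 ± 0.23) and in *simr-1 mut-2* animals (-1.61 ± 0.27). It was 1 of 6 tested PPP genes in each, with 0 called more enriched. Of all genes, 21.4% were called lower in the former comparison and 10.7% in the latter, against 1.74% and 0.114% called higher.

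Of 5 genes for PP1 partners, 5 were called higher in the IP of *hrde-2* animals, beside 28.5% of all genes (median 1.24, against -0.34). The largest were *knl-1* (2.20 ± 0.11), the kinetochore protein that docks PP1, and *mel-11* (1.35 ± 0.10), the myosin phosphatase targeting subunit. They were followed by *lab-1* (1.24 ± 0.14), which recruits PP1 to meiotic chromosomes. In wild-type 2 of 5 were called lower in the IP, *szy-2* (-1.92 ± 0.28), a homolog of inhibitor-2, and *sds-22* (-1.01 ± 0.25), a regulatory subunit, beside 25.3% of all genes, and with library size alone 5 of 5, beside 34.2%. All 5 were more enriched in *hrde-2* and in *mut-2* animals than in wild-type, with medians of 2.56 and 1.64 against -0.07 and 0.44 over all genes, and 2 of 5 in *simr-1* animals, beside the shares of all genes given for the PPP family. In *simr-1* animals 5 of 5 were more enriched with library size alone, beside 26.6% of all genes. Against *mut-2*, 0 of 5 were called in either double mutant. Among all genes, 1.74% were called higher and 21.4% lower with *hrde-2* also mutated, against 0.114% and 10.7% with *simr-1* also mutated.

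The chromosomal passenger complex, which holds the Aurora B kinase that PP1 opposes, has 4 genes. All 4 were called higher in *hrde-2* IPs (median 1.59), beside 28.5% of all genes, and 2 of 4 lower in wild-type IPs, beside 25.3%. In enrichment against wild-type, 4 of 4 were higher in *hrde-2*, 3 of 4 in *mut-2* and 2 of 4 in *simr-1* animals, beside 33.7%, 28.4% and 9.37% of all genes. In *simr-1* animals this became 4 of 4 with library size alone, beside 26.6%.

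The patterns of the 4 genes over the 36 libraries were compared by Pearson's r of log2(RPM + 1), as a description over libraries that share genotype and fraction. *gsp-1* and *gsp-2* were at r = 0.98 with each other, *gsp-3* and *gsp-4* at 0.94, and across the pairs r was between 0.44 and 0.51. Among the 10049 genes whose mean reached 10 RPM in some condition, *gsp-1* was most like *pptr-1*, a PP2A regulatory subunit (0.994), *eri-1*, an exonuclease of small RNA pathways (0.994), and *ctf-18* (0.993). *gsp-2* was most like Y48B6A.1 (0.994), *nog-1* (0.994) and *sas-7*, a centriole protein (0.994). *gsp-3* was most like C36H8.1 (0.967), *smz-2*, a sperm protein gene (0.961), and *clec-123* (0.959), and *gsp-4* was most like T03F6.6 (0.961), Y47D3A.31 (0.959) and H08M01.1 (0.957). The highest condition means of these last 6 genes were between 10.7 and 30.0 RPM.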

How the data were processed

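Small RNA libraries of 18 to 30 nt were analysed as deposited. The authors removed adapters and low-quality reads with FASTX-Toolkit, removed reads of the size standards with Cutadapt 3.4, mapped the rest to the WS258 genome with Bowtie2 2.5.0 and counted them per gene with featureCounts (Subread 2.0.1). The deposited tables hold estimated counts, not normalized: reads were counted on exons without strand, and a read overlapping several genes equally was split, so 10.4% of non-zero values are not whole. Whole counts had been assumed, and values were rounded for the tests. RPM used unrounded counts on genes.

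A gene entered a fit where 3 or more of its libraries held 10 or more counts, and was tested with edgeR 4.0.16 in R 4.3.3 (TMM, quasi-likelihood). In simulated data with 200 genes changed 4-fold, 161 were recovered for wild-type IP over input, 122 for enrichment in *hrde-2* against wild-type and 178 for *mut-2* against wild-type inputs, with 8, 4 and 13 false calls among 14477, 15444 and 13558 genes. Few genes were changed there, in random directions, so the simulation cannot show how the scaling behaves where many genes differ. IP over input used 6 libraries, enrichment differences 12 and inputs 6. Alternatives were DESeq2 1.42.0, other scalings and filters, a replicate block, all 36 libraries, a summed sperm pair and leaving out replicates. Input and IP of the same number share a lysate, and their deviations correlated at -0.00 to 0.52, above 0.1 in 16 of 18 pairs.

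Named genes were the 4 members, called PPP-family and PP1 partner genes (at most 3 per comparison, largest first) and the 3 genes most like each member. The members and lists were chosen with earlier results of these data known. A planned list of PP1-like proteins could not be made. Headers of 2 tables carry another replicate number than their labels, and the labels were kept. Plots used Python 3.11.15 and matplotlib 3.10.9.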

Additional observations from a re-analysis of the deposited data

Results flagged for a closer look

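Over the 4 genes and 5 comparisons between genotypes, 7 differences in IP enrichment passed the test of the difference itself. *gsp-1* was more enriched than in wild-type in *hrde-2* (log2 2.96), *mut-2* (1.81) and *simr-1* animals (1.07), and *gsp-2* in *hrde-2* (2.76), *mut-2* (1.31) and *simr-1* animals (1.07). Of all tested genes, 33.7%, 28.4% and 9.37% were called more enriched in *hrde-2*, in *mut-2* and in *simr-1* animals. In each of these 3 mutants all 3 lysates had more of both genes in the IP than in the input, and all 3 wild-type lysates had less. The enrichment of *gsp-3* was lower in *mut-2; hrde-2* animals, at -1.27 against *mut-2*, with all lysates of both genotypes lower in the IP. In that comparison 21.4% of all tested genes were called lower. This *gsp-3* call was lost without replicate 1, without replicate 2 and with all 36 libraries in 1 fit. The call of *gsp-2* in *mut-2* animals was lost with DESeq2 and with all 36 libraries. Groups of 3 are too small for a test of single outlying libraries.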

How the results depend on the processing

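Of 64 fitted values of the 4 genes, 61 kept direction and side of the threshold with DESeq2, 60 with the replicate block, 60 with the sperm pair as 1 feature, 59 with no filter on low counts, 53 with all 36 libraries, 52 with a suffix term (added after the data were seen), 51 with library size alone and 42 with mapped reads as library size. Counting the sperm pair as 1 feature leaves the counts of *gsp-1* and *gsp-2* as they were, so their values could hardly change there. The values that did change in that setting were all of *gsp-3* and *gsp-4*. All values below are log2, and the cause of the changes was not tested.

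With mapped reads, IP over input was 1.74, 1.94, 1.57 and 1.42 for *gsp-1*, 1.67, 1.59, 1.43 and 1.78 for *gsp-2*, -0.78, 0.33, 0.41 and -0.036 for *gsp-3*, and -0.69, 0.18, 0.19 and -0.47 for *gsp-4* in *mut-2; hrde-2*, in *simr-1 mut-2*, in *mut-2* and in *simr-1* animals, and 0.29 for *gsp-4* in *hrde-2* animals. Enrichment was 0.37 for *gsp-1* and 0.17 for *gsp-2* in *simr-1 mut-2* over *mut-2*, and 0.22 for *gsp-4* in *simr-1* against wild-type. *gsp-1* inputs were -0.034 in *hrde-2* against wild-type and 0.18 in *mut-2; hrde-2* against *mut-2*. With library size alone, IP over input was -1.24 for *gsp-1* and -1.26 for *gsp-4* in wild-type, 1.07 for *gsp-2* and -0.76 for *gsp-3* in *simr-1*, and -0.88 for *gsp-3* in *simr-1 mut-2* animals. Enrichment was -0.024 for *gsp-1* and -1.08 for *gsp-4* in *mut-2; hrde-2*, 0.067 for *gsp-1* in *simr-1 mut-2* and 0.059 for *gsp-4* in *simr-1* animals. Inputs were -0.044 (*hrde-2*), 1.06 (*mut-2*) and 0.28 (*mut-2; hrde-2*) for *gsp-1*, and 1.01 (*mut-2*) for *gsp-2*.

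With all 36 libraries, and in brackets with the suffix term, *gsp-1* enrichment was -0.012 (-0.012) in *mut-2; hrde-2* and 0.039 (0.039) in *simr-1 mut-2*, and its inputs 1.34 (1.31) for *mut-2* against wild-type and 0.11 (0.11) for *mut-2; hrde-2*. *gsp-2* was 1.22 (1.22) for IP over input in *simr-1*, 0.90 (0.89) for enrichment and 1.304 (1.19) for inputs in *mut-2*, and its *hrde-2* input was 0.011 with the suffix term. *gsp-3* IP over input was -1.12 (-1.16) in *hrde-2*, -0.60 (-0.59) in *simr-1* and -0.88 (-0.88) in *simr-1 mut-2*, and its enrichment -1.37 (-1.37) in *mut-2; hrde-2*. DESeq2 gave 0.067 for *gsp-1* enrichment in *simr-1 mut-2*, 0.018 for its *mut-2; hrde-2* input and 0.93 for *gsp-2* enrichment in *mut-2*. No filter gave 0.24 for *gsp-1* and 0.049 for *gsp-2* enrichment in *simr-1 mut-2*, 0.048 for the *gsp-1* input in *mut-2; hrde-2*, and for *gsp-3* IP over input -0.97 in *simr-1* animals and -0.88 in the double mutant with it. The sperm pair as 1 feature was at -1.16 for IP over input in wild-type, and its enrichment at -1.12 in *mut-2; hrde-2* and -0.31 in *simr-1*. With the mean of log2 values of the genes, the wild-type IP-minus-input difference of the sperm-to-ubiquitous ratio was -0.80, against -0.48 with summed counts.

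With the replicate block, paired by lysate, *gsp-3* IP over input was -1.39 in *hrde-2* and -1.54 in wild-type. In inputs, where numbers pair nothing, *gsp-3* was 1.32 and *gsp-4* 1.16 in *simr-1 mut-2* against *mut-2*, not called. The block changed no other call.

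Without replicate 1, 2 or 3, 52 of 61, 49 of 62 and 52 of 64 values that could be tested kept direction and side of the threshold. IP over input then ran from -1.21 to -1.13 (*gsp-3*, *simr-1*), -1.24 to -0.95 (*gsp-3*, *simr-1 mut-2*) and -1.52 to -0.90 (*gsp-4*, *simr-1 mut-2*). For *gsp-4* in *mut-2* animals it ran from -1.02 to -0.80, called without replicate 3. For *gsp-4* in *simr-1* animals it was -1.47 and -1.43, with too few counts for a test without replicate 2. Enrichment against *mut-2* ran from -0.026 to 0.15, -0.056 to 0.25, -1.44 to -1.16 and -1.37 to -0.65 for *gsp-1*, *gsp-2*, *gsp-3* and *gsp-4* in *mut-2; hrde-2* animals, while ranges of 0.038 to 0.15 and -0.52 to 0.018 were found for *gsp-1* and *gsp-4* in *simr-1 mut-2*. Against wild-type it ran from 0.80 to 2.73 (*gsp-3*) and -0.039 to 0.59 (*gsp-4*) in *mut-2*, and -0.11 to 1.51 (*gsp-3*) in *simr-1*. Inputs ran from -0.021 to 0.0068 (*gsp-1*, *mut-2; hrde-2*), -0.14 to 0.11 (*gsp-2*, *hrde-2*), 0.74 to 1.05 and 0.78 to 1.22 (*gsp-3* and *gsp-4*, *mut-2*), -0.010 to 0.72 (*gsp-4*, *simr-1*), and 0.94 to 1.51 and 1.02 to 1.33 (*gsp-3* and *gsp-4*, *simr-1 mut-2*).

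Counts over all genes moved too. Genes called higher in the IP numbered 333 in *mut-2; hrde-2* (6193 with mapped reads), 434 in *simr-1 mut-2* (7509), 1661 in *mut-2* (6794), 1155 in *simr-1* (7156) and 3659 in *hrde-2* (5939). Genes less enriched in *simr-1* than wild-type numbered 3405 (265 with mapped reads), and genes higher in *simr-1 mut-2* inputs 408 (24 without replicate 2, 1030 with library size alone). Low counts limit the precision of the sperm genes. The planned list of PP1-like proteins was not run.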
